A study of Mus musculus with 8 samples.

Results

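The ionotropic glutamate receptor genes of sympathetic neurons were taken as 9 gene columns of the neuronal expression table, out of 19224 gene columns in all. They are Gria1, Gria2, Gria3 and Gria4 of the AMPA class, Grik2 and Grik5 of the kainate class, and Grin1, Grin2b and Grin3a of the NMDA class. The genes were chosen by name and not by their values, though with earlier results of these data known. All 9 were found in the table. Their transcripts were followed across 1303 neurons of the stellate ganglion in 8 neuronal subtypes. The neurons came from adult male C57BL/6J mice aged 8 to 10 weeks, all in 1 condition, with AAV-GFP given into the heart and AAV-tdTomato into the front paws as retrograde tracers. Left and right ganglia were combined for digestion, and no untreated or uninjected group was analysed here. The study asked which kinds of stellate neurons serve the heart, and named 5 noradrenergic subtypes (NA1a, NA1b, NA1c, NA2, NA3), 2 cholinergic ones (Ach1, Ach2) and 1 glutamatergic one (Glut).

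Ionotropic glutamate receptors are cation channels built of 4 subunits that open when glutamate binds. AMPA receptors carry fast excitatory currents in the brain, kainate receptors tune release and excitability, and NMDA receptors pass calcium when glutamate and glycine bind together with depolarization. In sympathetic ganglia fast transmission is classically cholinergic and runs through nicotinic receptors, so glutamate receptor transcripts are not part of the textbook account of these neurons. Within the AMPA class, Gria2 encodes the subunit that makes a receptor poorly permeable to calcium after its messenger RNA is edited at the Q/R site of the pore loop. Grik5 encodes a kainate subunit that needs a partner such as the Grik2 product to form a channel. Grin1 encodes the obligatory glycine-binding NMDA subunit, Grin2b a glutamate-binding partner, and Grin3a a second glycine-binding subunit that lowers calcium entry.

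The stretch that sets this property was read from the genome for the 4 AMPA genes, because the share of Gria2 among AMPA transcripts is described below. Each sequence runs along the coding strand over 54 bases of a single exon (genome build GRCm38), and the capitals mark the glutamine codon of the Q/R site. The windows lie at chr11:57243064-57243117 on the plus strand (exon 11 of Gria1), chr3:80706890-80706943 on the minus strand (exon 11 of Gria2), chrX:41610235-41610288 on the plus strand (exon 11 of Gria3) and chr9:4464116-4464169 on the minus strand (exon 12 of Gria4).
Gria1: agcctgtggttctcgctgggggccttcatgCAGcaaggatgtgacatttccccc
Gria2: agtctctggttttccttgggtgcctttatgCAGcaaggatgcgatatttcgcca
Gria3: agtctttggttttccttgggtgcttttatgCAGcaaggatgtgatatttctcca
Gria4: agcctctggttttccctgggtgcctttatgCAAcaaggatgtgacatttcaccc
All 4 genes encode glutamine at this place in the genome, by the codon CAG in Gria1, Gria2 and Gria3 and by CAA in Gria4. Gria2 and Gria3 share 50 of the 54 bases, Gria2 and Gria4 share 47, and Gria1 and Gria2 share 43. The codon is followed by 23 more bases of its exon in each of the 4 genes. Editing of the transcript was not measured, since the files hold levels per gene and no base calls.

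On GRCm38 the members are protein-coding genes spread over 9 chromosomes. Gria1 lies at chr11:57011387-57330244, Gria2 at chr3:80681450-80802835, Gria3 at chrX:41400854-41678601 and Gria4 at chr9:4417896-4796234. Grik2 lies at chr10:49094833-49788766 and Grik5 at chr7:25009849-25072346. Grin1 lies at chr2:25291181-25319187, Grin2b at chr6:135713233-136173511 and Grin3a at chr4:49661611-49845744. Their genomic spans run from 28007 bases in Grin1 to 693934 bases in Grik2. Of all tested genes ranked by this span, 8 of the 9 members fall in the longest quartile and Grin1 in the third.

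A level is given here as a unique molecular identifier (UMI) count per 10000 UMIs of a neuron, averaged over the neurons of a mouse and subtype. Each UMI stands for 1 captured RNA molecule, read mainly at the end of the transcript, so levels were not divided by length and say nothing of protein. Of the 8 mouse names, 5 could be matched to a sample, and these mice (replicates 1 to 5, 1002 neurons, 916296 to 1196621 UMIs each) give the values over mice. A mouse entered a subtype with at least 10 neurons, which left 5 mice for NA1a, NA1b, NA1c and NA2, 3 for NA3, 2 for Ach2, 1 for Ach1 and 0 for Glut. The remaining 301 neurons entered only pooled values and the limits of the Npy strata. The 5 matched mice are of batch 2, and the 3 samples without a matched name are of batch 1. Pooled values therefore probably mix batches, and in unequal parts: 134 of 316 NA1a and 20 of 37 Glut neurons were unmatched. Snap25, a neuronal marker, was found in 84.8% to 97.3% of the neurons of each subtype and Dbh, the noradrenaline-making enzyme, in 80.6% to 100%. Some labels had little support from transmitter genes. Chat, which makes acetylcholine, was found in 32.3% of the 62 Ach2 neurons and in 0 of the 64 Ach1 neurons (a count of 0 allows up to 4.69%). Of the Ach1 neurons, 55 came from replicate 4. Slc17a6, whose product loads glutamate into vesicles, gave a UMI in 13.5% of the 37 Glut neurons. Of the 1303 neurons, 73 carried a barcode sequence also present in another mouse, 55 of them in NA2, 15 in Ach2 and 3 in Glut. Of these 21 barcode sequences, 20 carried a single subtype name. NA2, Ach2 and Glut values are therefore also given without these neurons where they bear on a result. Non-neuronal cells were not used, so the background of free RNA has no direct measure, and for each gene the lowest subtype is given as an upper guide.

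Gria2 was the most abundant member in all neurons together, with 3194 UMIs and at least 1 UMI in 65.2% of neurons. Grik5 followed with 1208 UMIs in 52.4% of neurons. Gria4, Gria1 and Gria3 had 620, 602 and 563 UMIs, found in 33.5%, 30.1% and 26.4% of neurons. Grin1 had 387 UMIs in 23.6% and Grik2 had 162 UMIs in 10.8%. Grin3a had 55 UMIs in 3.45% of neurons, and Grin2b had 3 UMIs in all. By total UMIs, Gria2 stood above 98.7% of the gene columns, while Grin3a stood above 46.7%. AMPA and kainate transcripts were thus readily captured in these neurons, and NMDA transcripts other than Grin1 were rare.

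Gria2 was the leading receptor transcript in the noradrenergic NA1 subtypes. In NA1a, replicates 1 to 5 had 5.44, 7.31, 5.08, 5.08 and 5.24 UMIs per 10000. In NA1b they had 4.27, 5.87, 4.90, 7.65 and 6.62, and in NA1c 3.22, 4.43, 6.80, 4.30 and 5.33. The ranges of the 3 subtypes overlapped, and the differences among them (at most 0.29 on the log2 scale) did not pass the test. NA2 had 0.519, 0.317, 0.882, 0.605 and 0.410, and no NA2 mouse reached any NA1 mouse. NA3, in replicates 2, 4 and 5, had 0.924, 3.56 and 2.83, which placed 2 of its 3 mice near the lower NA1 values. The order of the means was NA1b (5.86 ± 1.34, SD), NA1a (5.63 ± 0.95), NA1c (4.81 ± 1.34), NA3 (2.44 ± 1.36), Ach2 (1.77 ± 0.43, n = 2) and NA2 (0.547 ± 0.217), and of these neighbours only Ach2 and NA2 had ranges that did not overlap. Ach1 had 0.710 in replicate 4 and 0.934 pooled, and Glut had 1.37 pooled. A UMI of Gria2 was found in 89.6% of NA1a neurons (median 6524.5 UMIs per neuron) and 22.3% of NA2 neurons (median 2461 UMIs). With neurons thinned to 2000 UMIs these shares were 55.2% and 9.68%, beside 71.4% in NA1b and 63.2% in NA1c. At that depth every NA1a mouse (50.0% to 64.0%) lay below every NA1b mouse (66.7% to 75.7%), a difference that was not tested.

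**Figure D1:**
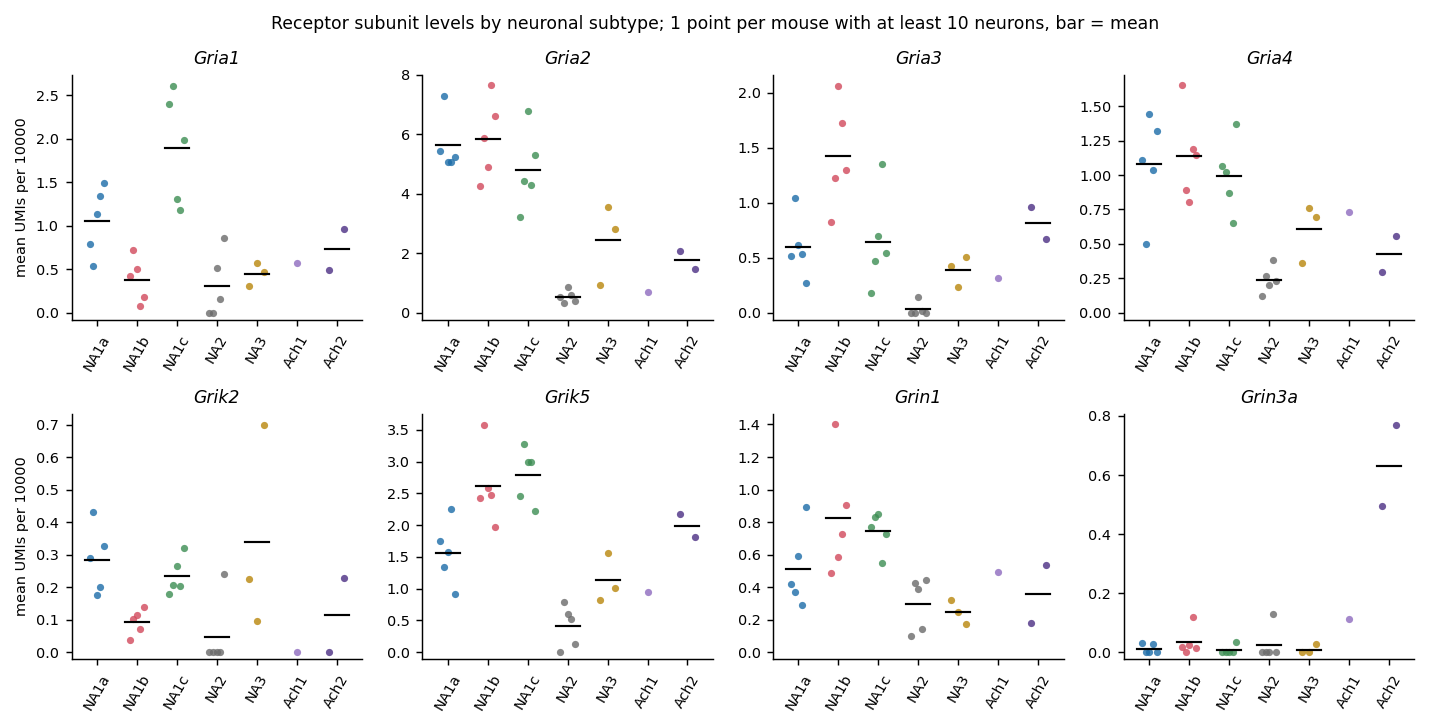
Level of 8 receptor genes (mean UMIs per 10000, vertical axis) by subtype, with 1 point per mouse with at least 10 neurons and a bar at the mean. Gria2 in NA2 lies between 0.317 and 0.882, below all NA1 mice, and Gria1 is lower in every NA1b mouse (0.0777 to 0.719) than in any NA1c mouse (1.18 to 2.61).

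Gria1 was higher in NA1c than in NA1b. NA1c had 2.40, 2.61, 1.31, 1.18 and 1.99 UMIs per 10000 in replicates 1 to 5, and NA1b had 0.428, 0.719, 0.503, 0.0777 and 0.185. All NA1c mice lay above all NA1b mice. NA1a, with 0.797, 0.540, 1.14, 1.34 and 1.49, lay between them and overlapped both. NA1b was lower than NA1c by 2.18 ± 0.42 (SE) on the log2 scale, with an adjusted p of 0.000994 by limma, and in all 5 mice. The call was lost when no filter on low levels was applied (adjusted p = 0.0595). Between NA1a and NA1b the difference was 1.39 ± 0.42 (adjusted p = 0.0684), short of the threshold. It passed in 7 of 21 alternative settings, 1 of them without replicate 2 (1.82, adjusted p = 0.0174). The test asks how steady a difference is over mice: the subtypes had been defined by the authors on these same cells and genes. In NA2 Gria1 was scattered, at 0, 0, 0.515, 0.160 and 0.864. NA3 had 0.448 ± 0.135 (n = 3), Ach2 0.729 ± 0.338 (n = 2), Ach1 0.515 pooled and Glut 0.532 pooled. From the highest mean to the lowest the order was NA1c, NA1a, Ach2, NA3, NA1b and NA2, and the mouse ranges of all neighbours overlapped. A UMI of Gria1 was found in 49.4% of NA1a, 48.5% of NA1c and 13.5% of NA1b neurons, and at 2000 UMIs in 22.4%, 29.7% and 9.27%.

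Gria3 leaned the other way from Gria1. NA1b had 0.827, 1.23, 2.06, 1.73 and 1.30 UMIs per 10000, NA1a had 0.517, 1.05, 0.614, 0.532 and 0.272, and NA1c had 0.178, 0.471, 0.696, 1.35 and 0.541. NA1b was the highest subtype in mean (1.43 ± 0.48), but its range overlapped those of NA1a and NA1c. The differences were 1.17 ± 0.36 on the log2 scale against both NA1a (adjusted p = 0.0781) and NA1c (adjusted p = 0.130), and neither passed by limma. They passed in 6 and in 5 of 21 alternative settings. NA2 had 0, 0, 0.142, 0.0145 and 0, below the other subtypes in all mice. NA3 had 0.392 ± 0.139 (n = 3), Ach2 0.817 ± 0.204 (n = 2), Ach1 0.331 pooled and Glut 0.689 pooled. In order, the means ran NA1b, Ach2, NA1c, NA1a, NA3 and NA2, with a gap between mouse ranges only at the last step.

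Gria4 was at 1.08 ± 0.37 UMIs per 10000 in NA1a, 1.14 ± 0.33 in NA1b and 0.996 ± 0.264 in NA1c, each with 5 mice, and their ranges overlapped. NA2 had 0.123, 0.268, 0.202, 0.385 and 0.231 UMIs per 10000, below the lowest NA1 mouse (0.496). NA3 had 0.605 ± 0.213 (n = 3), Ach2 0.429 ± 0.186 (n = 2), Ach1 0.709 pooled and Glut 0.582 pooled. Neighbours in this order all had overlapping mouse ranges.

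Among kainate genes Grik5 led, with more UMIs than any member but Gria2 in NA1a, NA1b, NA1c, NA2 and NA3. NA1c had 2.46, 3.27, 3.00, 2.99 and 2.23 UMIs per 10000, NA1b had 2.43, 3.57, 2.58, 2.48 and 1.97, and NA1a had 1.76, 1.35, 1.57, 2.25 and 0.909. NA1a was the lowest of the 3 in mean (1.57 ± 0.50 against 2.79 ± 0.43 in NA1c and 2.61 ± 0.59 in NA1b). The differences of NA1a from NA1b (-0.73 on the log2 scale, adjusted p = 0.282) and from NA1c (-0.84, adjusted p = 0.169) did not pass by limma. Ach2 had 1.99 ± 0.25 (n = 2) and NA3 1.13 ± 0.39 (n = 3). NA2 had 0, 0.795, 0.599, 0.517 and 0.130, all below the lowest NA3 mouse (0.817). Ach1 had 0.924 and Glut 0.794 pooled. Grik2, a partner that Grik5 can use, was far less abundant. NA1a had 0.290, 0.431, 0.175, 0.201 and 0.326, NA1b 0.0390, 0.101, 0.115, 0.0716 and 0.139, and NA3 0.227, 0.0965 and 0.698. In NA2 replicate 5 had 0.240 and the other 4 mice were at 0. Pooled shares of neurons with a Grik2 UMI ran from 1.71% in NA2 to 24.2% in NA3. Of the 141 neurons with a Grik2 UMI, 92 also had one of Grik5, and 683 neurons had Grik5.

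Grin1 had most of the NMDA-class UMIs among the members, except in Ach2, where 20 pooled UMIs of Grin3a stood beside 16 of Grin1. NA1b had 0.490, 1.40, 0.586, 0.729 and 0.906 UMIs per 10000, NA1c had 0.768, 0.831, 0.849, 0.547 and 0.727, and NA1a had 0.418, 0.369, 0.590, 0.292 and 0.892. NA2 had 0.0976, 0.425, 0.386, 0.144 and 0.443, and NA3 had 0.321, 0.246 and 0.172. Neighbouring subtypes overlapped throughout, and NA3 lay below all NA1b and NA1c mice. Ach2 had 0.358 ± 0.251 (n = 2), Ach1 0.503 pooled and Glut 0.472 pooled.

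The glutamate-binding NMDA subunits were near the limit of detection. Grin2b was found in 3 of 1303 neurons, 1 of them NA1c and 2 NA3. In NA1a it was found in 0 of 316 neurons (up to 0.949% allowed), and in NA2 in 0 of 175 (up to 1.71% allowed). Grin2c, outside the 9 genes, had 46 UMIs, Grin2d had 7 and Grin2a had 0. Altogether 51 neurons had a UMI of Grin2a, Grin2b, Grin2c or Grin2d, against 307 neurons with Grin1, and 11 neurons had both. Such small numbers do not show whether the subunits were made in the same neurons.

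At full depth Grin3a was found in the largest share of neurons in Ach2. It had 0.494 UMIs per 10000 in replicate 1 and 0.769 in replicate 4, the only mice with at least 10 Ach2 neurons. NA1b, the next subtype in mean, had 0.0191, 0, 0.0259, 0.119 and 0.0129 in replicates 1 to 5. No mouse of NA1a, NA1b, NA1c, NA2 or NA3 reached an Ach2 mouse. Pooled, 16 of 62 Ach2 neurons had a UMI (25.8%, exact 95% Clopper-Pearson interval 15.5 to 38.5), against 14 of 311 NA1b neurons (4.50%, 2.48 to 7.44) and 5 of 37 Glut neurons (13.5%, 4.54 to 28.8). Within mice, Ach2 exceeded NA1b by 2.15 on the log2(level + 0.1) scale. That rests on 2 mice, where the exact sign-flip permutation test can give no p below 0.5. With at least 5 neurons per mouse, 4 of 5 mice were higher in Ach2 (mean difference 2.43, exact permutation p = 0.125, with 0.063 the smallest possible). Without neurons that shared a barcode, 12 of 47 Ach2 neurons had a UMI (25.5%). At 2000 UMIs per neuron the share was 9.26% in Ach2, 10.3% in Glut, 1.61% in NA1b and 0.649% in NA1a, so Ach2 was not above Glut at matched depth. Of the 45 neurons with Grin3a in the whole table, 15 also had Grin1.

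How far the members set the subtypes apart was asked with 1 fit over all genes, on 23 profiles of mouse and subtype in NA1a, NA1b, NA1c, NA2 and NA3. Of 11737 genes that passed the filter on low levels, 5748 (49.0%) differed among the 5 subtypes at an adjusted p under 0.05. Of the 9 members 7 passed the filter, and all 7 were called. Grin2b and Grin3a did not pass it. Adjusted p ran from 1.76e-16 for Gria2 over 9.51e-11 for Grik5 and 3.04e-10 for Gria3 to 0.00254 for Grik2. When NA2 was left out, 2920 genes and 5 members were called, and Gria4 (adjusted p = 0.261) and Grik2 (adjusted p = 0.132) were not. Thinning to 2000 UMIs left 3075 genes called and also 5 members, without Grin1 and Grik2. The number of genes tested can differ between such settings, so shares of all genes are not given for them.

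Most tested members were lower in NA2 than in the other noradrenergic subtypes. Against NA1a, 6 of 7 members were lower in NA2, where 32.0% of all genes were called and 23.4% were called in that direction. Against NA1b they were 5 of 7 (37.4% of all genes called, 25.5% in that direction), against NA1c 7 of 7 (40.0%, 26.4%) and against NA3 5 of 7 (26.6%, 17.5%). In the opposite direction, with 8.56%, 11.9%, 13.6% and 9.14% of all genes called higher in NA2 than in NA1a, NA1b, NA1c and NA3, 0 members were called. Gria2 was lower in NA2 by 3.20 against NA1a, 3.24 against NA1b and 2.95 against NA1c on the log2 scale (SE 0.25, adjusted p at most 4.25e-14), in 5 of 5 mice each. Grik5 was lower by 2.04, 2.77 and 2.88 (SE 0.31, adjusted p at most 7.63e-07), and Gria4 by 1.76, 1.86 and 1.69 (SE 0.31, adjusted p at most 1.29e-05). Gria3 was lower by 2.41, 3.58 and 2.41 (SE 0.36), values that depend on the pseudocount because 3 NA2 mice were at 0. With a pseudocount of 1 they were 0.62, 1.22 and 0.64 and were still called. For Grin1 the differences were 0.66 ± 0.34 against NA1a (adjusted p = 0.130), 1.25 against NA1b and 1.19 against NA1c (both called). The other differences that did not pass were those of Gria1 (0.62) and Grik2 (0.57) against NA1b. The median difference of the 7 members was 2.01, 1.86 and 2.41 on the log2 scale, and that of all genes tested 0.29, 0.30 and 0.30.

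**Figure D2:**
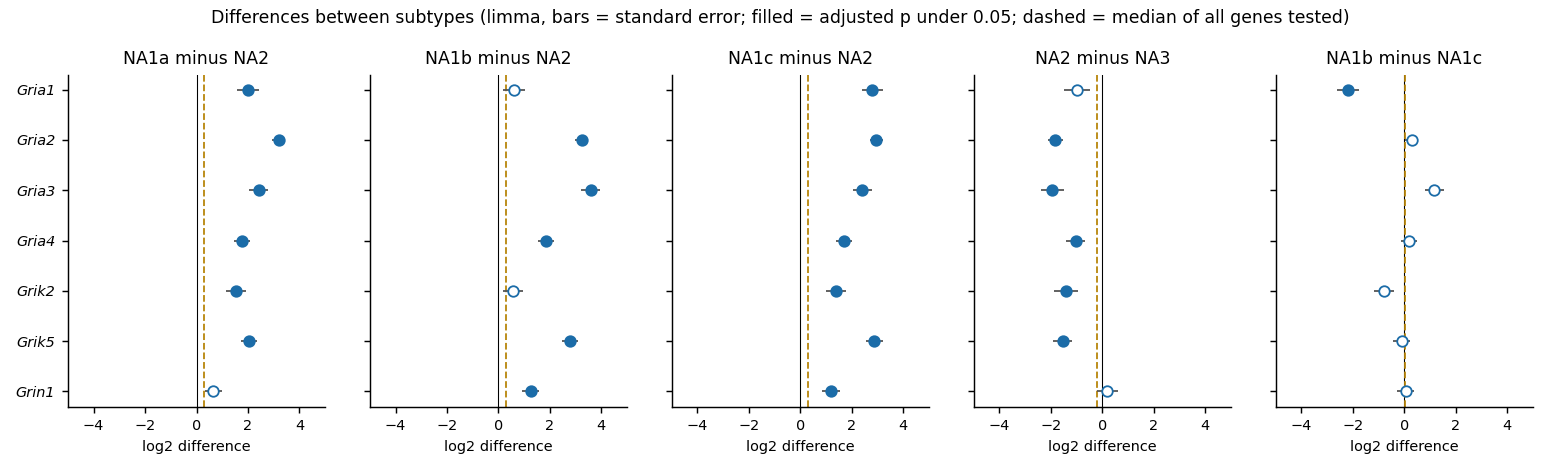
Log2 difference of each tested member (horizontal axis) in 5 of the 10 subtype pairs, with bars for the standard error, filled points for adjusted p under 0.05 and a dashed line at the median of all 11737 genes. Members lie to the right of that line in the 3 comparisons of NA1 subtypes with NA2, and Gria1 is the single filled point between NA1b and NA1c.

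The direction over all genes depended on the scaling. Centring each profile on its median gene turned the split of called genes between NA1a and NA2 from 2746 higher and 1005 lower to 1332 higher and 2304 lower. The same happened with NA1b (2991 and 1396 to 1615 and 2585), NA1c (3096 and 1597 to 1670 and 2888) and NA3 (2054 higher and 1073 lower than NA2 to 1110 and 2314). The 23 called differences of members from NA2 all kept their direction, at 2.73, 2.76 and 2.46 for Gria2 in the 3 NA1 subtypes. Of the 18 calls between NA1 subtypes and NA2, 3 were lost (Grin1 against NA1b and NA1c, Grik2 against NA1c), and of the 5 between NA3 and NA2 those of Grik2 (adjusted p = 0.129) and Gria4 (adjusted p = 0.302) were lost. Thinning to 2000 UMIs lost 4 of the 18, those of Grin1 against NA1b (adjusted p = 0.101) and NA1c (0.0841) and of Grik2 against NA1a (0.321) and NA1c (0.193). Leaving out any 1 mouse lost none of the 18.

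Other features of the NA2 profiles moved with these low levels. Malat1, a nuclear noncoding RNA, was at 74.2 ± 24.0 UMIs per 10000 in NA2 and at means of 742 to 872 in NA1a, NA1b, NA1c, NA3 and Ach2. Mitochondrial transcripts made up 7.27% ± 1.01 of NA2 UMIs against 3.37% to 4.51% in the NA1 subtypes. They made up 7.61% ± 3.23 in NA3 (n = 3), so this share was not particular to NA2. Ribosomal protein genes made up 8.11% ± 0.95 in NA2, 5.08% ± 1.36 in NA3 and 3.12% to 4.80% in the NA1 subtypes. Gene span moved with them as well. Over 11640 tested genes with an annotated span, the median difference from NA2 rose from -0.03 in the shortest quartile to 0.68 in the longest for NA1a, from -0.13 to 0.70 for NA1b and from -0.20 to 0.75 for NA1c. In the longest quartile, which holds 6 of the 7 tested members, 40.4%, 42.2% and 44.1% of genes were called lower in NA2, so the percentages for all genes understate the background of long genes. Their part in the receptor result was not tested. In pooled neurons, Malat1 and Gria2 were at 258 and 0.934 UMIs per 10000 in Ach1, 131 and 1.37 in Glut, and 757 and 1.62 in Ach2. Without the 73 neurons that shared a barcode, NA2 kept 4 mice, its Gria2 level was 0.740 ± 0.272, and all 18 calls against the NA1 subtypes remained (Gria2 at 2.86, 2.91 and 2.61).

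**Figure D3:**
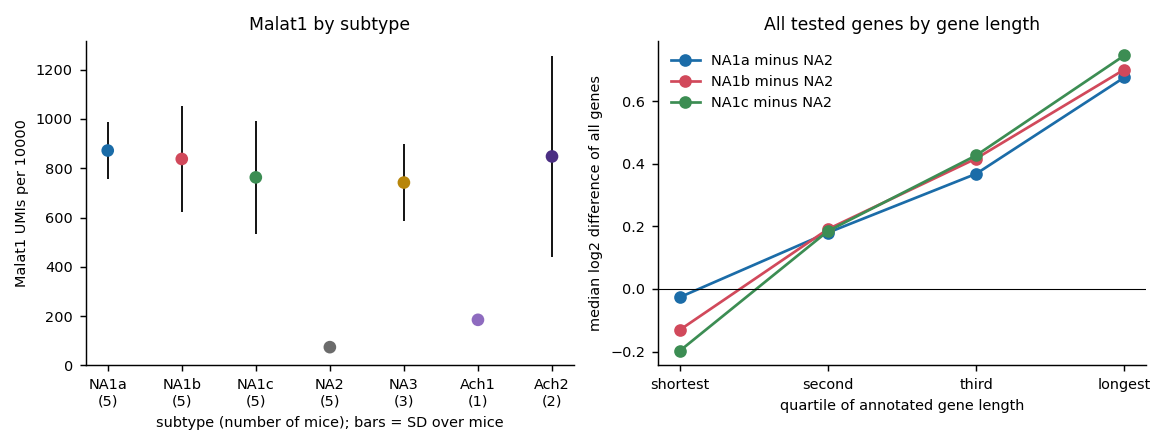
Left, mean Malat1 level (UMIs per 10000) by subtype with the number of mice, bars giving the SD over mice. Right, median log2 difference of all tested genes between each NA1 subtype and NA2 by quartile of annotated gene span. Malat1 in NA2 (74.2) lies far below NA1a (872), and the median difference rises with span in all 3 comparisons.

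Between NA3 and the NA1 subtypes fewer members were called, and the calls were not steady. Grik2 had its highest mean in NA3 (0.341 ± 0.317), with no call against an NA1 subtype, and Gria1 was at 0.448 in NA3 and 0.382 in NA1b (adjusted p = 0.660). Against NA1a, 1 of 7 members was lower in NA3 (Gria2, 1.36 on the log2 scale), where 13.8% of all genes were called and 6.64% in that direction. Against NA1b they were 4 (Gria2, Gria3, Grik5 and Grin1; 15.9% of all genes, 7.61% in that direction) and against NA1c 4 (Gria1, Gria2, Grik5 and Grin1; 17.9%, 8.61%). Grin1 was lower in NA3 by 1.45 ± 0.40 against NA1b (adjusted p = 0.00752) and by 1.39 ± 0.40 against NA1c (adjusted p = 0.0102). NA3 had 3 mice, and each of these 9 calls was lost when 1 of them was left out. Without replicate 2 the Gria2 differences were 0.73 (adjusted p = 0.116), 0.86 (0.0517) and 0.59 (0.203), the Grik5 differences 0.86 (0.202) and 1.03 (0.106), and that of Gria1 1.51 (0.0681). Without replicate 5 the Grin1 differences were 1.18 (0.117) and 1.18 (0.112) and that of Gria1 1.68 (0.0607), and without replicate 4 that of Gria3 against NA1b was 1.25 (0.105). Between NA2 and NA3, Gria2 (1.83 lower in NA2) and Gria3 (1.94 lower) kept their calls when any 1 mouse was left out. Gria3 lost its call with a pseudocount of 1 (adjusted p = 0.0657), with averaged log values (0.0869) and after thinning (0.0751). Grik5 lost its call without replicate 5 (-1.23, adjusted p = 0.0610), Grik2 without replicate 2 (-1.37, 0.0693) or 5 (-1.30, 0.0840) and Gria4 without replicate 1 (-0.88, 0.0782), 4 (-1.02, 0.106) or 5 (-0.98, 0.144). Transcripts of 10 satellite glia genes summed to 256 ± 82 UMIs per 10000 in NA3 (187 to 347) and to means of 6.27 to 13.7 in NA1a, NA1b, NA1c and NA2. Their part in the lower receptor levels of NA3 was not tested.

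Among the NA1 subtypes themselves few calls were made. No member was called between NA1a and NA1b (2.16% of all genes) or between NA1a and NA1c (2.45%), and 1 of 7 was called between NA1b and NA1c (1.05% of all genes, 0.648% lower in NA1b). Some differences that did not pass kept 1 direction in 5 of 5 mice. Grik2 was lower in NA1b than in NA1c (-0.80 on the log2 scale) and NA1a (0.98 higher in NA1a), Gria3 was higher in NA1b than in both, and Grik5 was lower in NA1a than in NA1b and NA1c. The exact permutation p of each was 0.063, the smallest that 5 mice allow.

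The make-up of the AMPA transcripts does not depend on the total per neuron. Gria1 was a smaller part of it in NA1b than in NA1c in every mouse. Gria2 made up 70.3%, 68.1%, 65.2%, 73.0% and 72.4% of the Gria1 to Gria4 UMIs in NA1b (155 to 304 UMIs per mouse). In NA1c it made up 53.5%, 56.4%, 64.9%, 59.5% and 60.6% (77 to 322 UMIs). Every NA1b mouse lay above every NA1c mouse, and within mice the difference was 10.8 points ± 6.26 (SD, 5 of 5 mice higher, exact sign-flip permutation p = 0.063, the smallest possible). Gria1 made up 3.10% ± 2.57 in NA1b and 20.3% ± 5.63 in NA1c, a difference of 17.2 points in the same direction in 5 of 5 mice (exact permutation p = 0.063). Shares within a mouse add up to a fixed total, so the Gria1 and Gria2 differences are not separate results. The Gria2 level itself was not called between NA1b and NA1c (0.29 on the log2 scale, adjusted p = 0.835 by limma). Gria3 made up 15.1% ± 3.44 in NA1b and 7.13% ± 2.97 in NA1a, higher in NA1b in 5 of 5 mice (exact permutation p = 0.063). NA1a had Gria2 at 65.8% ± 7.00 and Gria1 at 13.8% ± 5.75. These were 3 of 40 pairwise differences compared in this way, with p-values not adjusted, and with 5 mice none could reach 0.05.

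**Figure D4:**
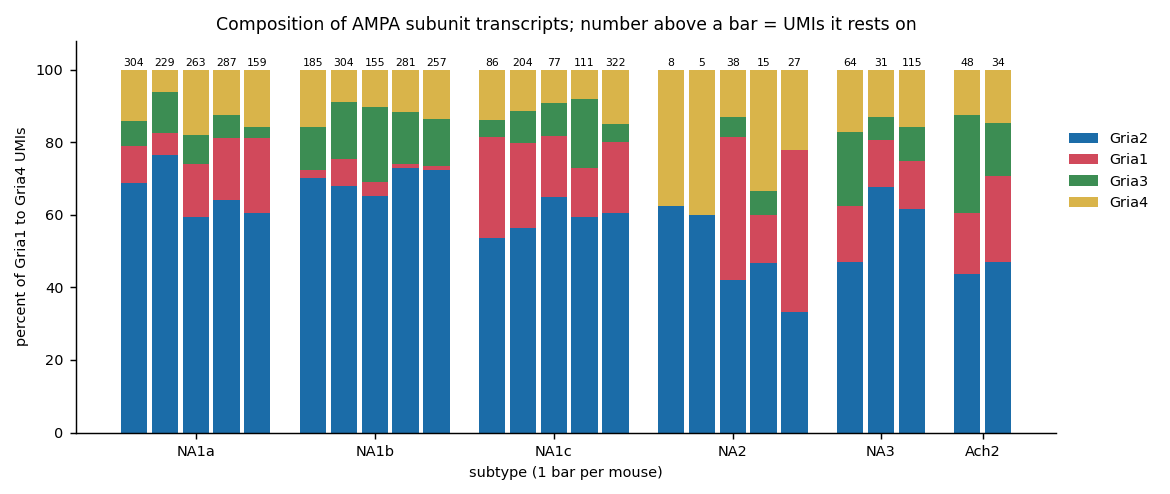
Percent of Gria1 to Gria4 UMIs (vertical axis) from each gene, with 1 bar per mouse and subtype and the number of UMIs above it. Gria1 is a thin band in NA1b (mean 3.10%) and a broad one in NA1c (mean 20.3%), and NA2 bars rest on 5 to 38 UMIs.

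Outside the NA1 subtypes the Gria2 share ranged more widely. It made up 58.8% ± 10.7 in NA3 (n = 3), 48.9% ± 12.3 in NA2 (n = 5, 5 to 38 UMIs per mouse) and 45.4% ± 2.34 in Ach2 (n = 2). In NA2 the share was below that of NA1a in 5 of 5 mice (16.9 points) and below that of NA1b in 5 of 5 (20.8 points), both with an exact permutation p of 0.063. Against NA1c it was below in 3 of 5 mice (10.0 points ± 15.9, exact permutation p = 0.25). Between NA1c and NA3 the share differed by 0.012 points, higher in NA1c in 1 of 3 mice. Pooled over neurons it was 66.2% in NA1a, 71.1% in NA1b, 58.3% in NA1c, 56.4% in NA3, 53.8% in Ach1 (65 UMIs), 45.2% in NA2 (124 UMIs), 40.7% in Ach2 (145 UMIs) and 38.2% in Glut (55 UMIs). The pooled Ach1 value leans on few neurons. Replicate 4, with 55 of the 64 Ach1 neurons, had 36.1% of 36 UMIs, while 3 neurons of replicate 1 gave 19 UMIs at 73.7%. The exact 95% intervals for Gria2 were 64.0% to 68.4% in NA1a, 32.6% to 49.2% in Ach2 and 25.4% to 52.3% in Glut. Gria3 made up 8.11% in NA1a, 22.8% in Ach2 and 20.0% in Glut. Of the 1019 neurons with an AMPA UMI, 170 had none of Gria2.

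A UMI of any member was found in most noradrenergic neurons. The share was 96.6% ± 3.27 in NA1a, 96.4% ± 4.32 in NA1b and 94.4% ± 4.05 in NA1c (n = 5 mice each), 87.8% ± 7.04 in NA3 (n = 3), 82.6% ± 8.00 in Ach2 (n = 2) and 46.0% ± 18.4 in NA2 (n = 5). At 2000 UMIs per neuron, pooled, it was 95.2% in NA1b, 92.3% in NA1c, 85.7% in NA1a, 65.6% in NA3, 63.0% in Ach2, 55.2% in Glut, 50.0% in Ach1 and 34.7% in NA2. Thinning left out 8 of 316 NA1a neurons, 63 of 311 NA1b, 57 of 239 NA1c, 51 of 175 NA2, 9 of 99 NA3, 26 of 64 Ach1, 8 of 62 Ach2 and 8 of 37 Glut neurons. By class, at full depth, AMPA UMIs were found in 94.0% of NA1a neurons, kainate UMIs in 71.2% and NMDA UMIs in 29.1%. In NA2 these shares were 36.6%, 17.7% and 10.3%. Gria1 and Gria2 were found together in 46.5% of NA1a neurons, 35.6% of NA1c and 10.6% of NA1b, and at 2000 UMIs in 11.4%, 18.1% and 5.65%.

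The study sorted neurons by Npy, the gene of neuropeptide Y, a cotransmitter of sympathetic neurons. Following it, the pooled NA1a, NA1b and NA3 neurons of all mice were split at the bottom 30% (up to 5.58 UMIs per 10000 of Npy) and the top 30% (from 45.8), and levels were compared within the 5 matched mice. Gria1 was at 0.954, 1.30, 1.09, 1.54 and 1.56 UMIs per 10000 in the high stratum and at 0.375, 0.0741, 0.256, 0.0765 and 0.260 in the low one. Every high value lay above every low value, and the difference was 2.26 ± 0.29 (SE) on the log2 scale (adjusted p = 1.07e-08 by limma, 5 of 5 mice). Gria3 went the other way, at 0.587, 0.858, 0.641, 0.581 and 0.450 in the high stratum and 0.750, 1.10, 2.35, 1.51 and 1.11 in the low one. It was lower in the high stratum in 5 of 5 mice (-0.95 ± 0.24, adjusted p = 0.00602), but the call was lost without replicate 3 (-0.75, adjusted p = 0.107) and after thinning to 2000 UMIs (-1.0, adjusted p = 0.189). These 2 of 7 tested members stand beside 642 of 9285 genes called (6.91%), 3.49% higher and 3.42% lower in the high stratum.

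Gria2 was not called between the Npy strata, at 5.51 ± 0.87 in the high and 5.55 ± 1.51 in the low stratum (difference 0.01 ± 0.16). The differences were -0.15 ± 0.27 for Grin1, -0.21 ± 0.20 for Grik5, 0.25 ± 0.23 for Gria4 and 0.45 ± 0.35 for Grik2, none of them called. Stratum and subtype moved together. NA1a made up 67.7% to 100% of the high stratum of a mouse and 0% to 5.88% of the low one, so the effect of Npy and that of subtype cannot be told apart in this comparison. Strata were also set within NA1a alone in each mouse, with at least 5 neurons in a profile. There the Gria1 difference was 1.12 (adjusted p = 0.422) and 5 genes were called in all. The Gria3 difference was 0.84 in the opposite direction (adjusted p = 0.690). These profiles hold fewer neurons than those of the main comparison, so a missing call or a turned sign there decides nothing.

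**Figure D5:**
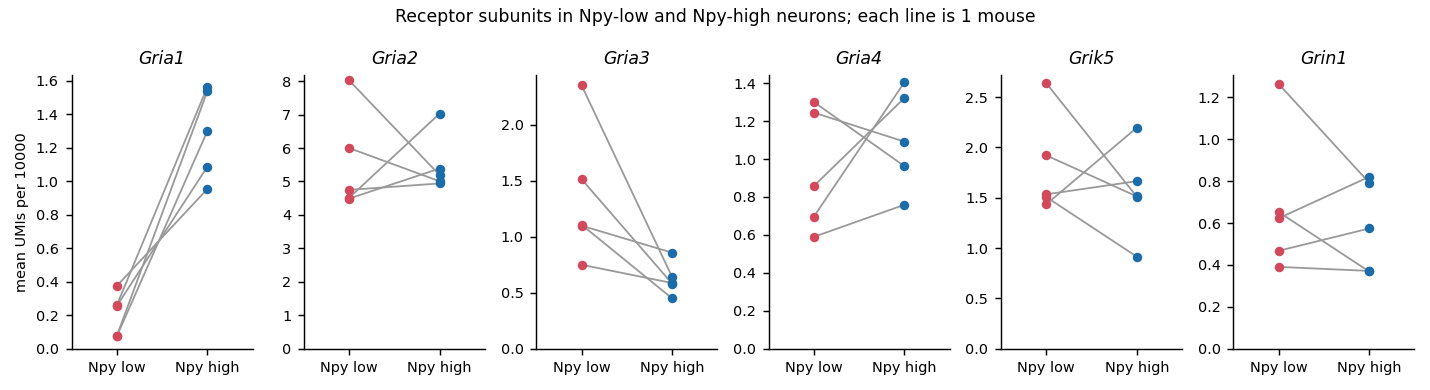
Level of 6 members (UMIs per 10000) in neurons of the low and the high Npy stratum, with 1 line per mouse. All 5 lines rise for Gria1 (from at most 0.375 to at least 0.954) and fall for Gria3, and those of the other 4 genes cross.

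Genes that work with these receptors were read from the same fit. Of 9 other ionotropic receptor genes 4 passed the filter and all 4 were called (49.0% of all genes). Grik4, a kainate subunit related to Grik5, shared the pattern of Gria1: it was at 0.486 ± 0.332 UMIs per 10000 in NA1c, 0.204 ± 0.119 in NA1a and 0.0493 ± 0.0539 in NA1b, lower in NA1b than in NA1c by 1.88 ± 0.40 (adjusted p = 0.00387). Grid1, a delta receptor, was lower in NA1b than in NA1c by 1.36 ± 0.36 (adjusted p = 0.0426). Its mean over all neurons was 0.0997 UMIs per 10000. It passed the filter of 0.1 through its higher profiles, so that call is given as a description. Of 26 scaffold and trafficking genes 25 were tested and 18 were called. Lower in NA2 were 13 of them against NA1a, 16 against NA1b and 17 against NA1c, where 23.4%, 25.5% and 26.4% of all genes were called in that direction. Higher in NA2 were 0, 1 and 1 of them, where 8.56%, 11.9% and 13.6% of all genes were. Among those lower in NA2 were the kinase subunits Camk2d (1.66, 1.97 and 1.58) and Camk2b (1.41, 1.94 and 2.49) and the scaffold Shank1 (1.47, 1.91 and 2.07). Of 17 auxiliary subunit genes 11 were tested and 5 were called. Olfm1, which encodes a secreted protein found in AMPA receptor complexes, was at 4.94 ± 1.42 in NA2 and 2.87 ± 0.48 in NA1a, higher in NA2 by 0.73 ± 0.22 (adjusted p = 0.00937). It was not called between NA2 and NA1b (adjusted p = 0.451) or NA1c (0.380). Olfm2 was higher in NA2 than in NA1b and NA1c by 1.03 and 0.81. Cacng3, which encodes a protein that escorts AMPA receptors, was higher in NA1a and NA1c than in NA2 by 1.23 and 1.31. Called higher and lower in the NA1 subtype were 2 and 1 auxiliary genes for NA1a, 1 and 1 for NA1b and 2 and 1 for NA1c, below the shares over all genes (23.4%, 25.5% and 26.4% higher) and near those for lower (8.56%, 11.9% and 13.6%).

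Of 8 metabotropic receptor genes 4 were in the table and 2 were tested. Grm7, an inhibitory receptor, was higher in NA1a, NA1b and NA1c than in NA2, by 1.47, 1.34 and 1.13. Grm4 was found in 22 of 311 NA1b neurons and 0 of 239 NA1c neurons (up to 1.26% allowed), and was called between them (adjusted p = 0.0136). Its mean over all neurons was 0.0624 UMIs per 10000, below the filter level of 0.1. It passed the filter through its higher profiles, so that call is given as a description. Of 13 genes of glutamate transport and metabolism 8 were tested and 3 were called. Glud1, a glutamate dehydrogenase of mitochondria, was higher in NA2 than in NA1a, NA1b and NA1c by 1.92, 1.16 and 1.05. Slc1a5, an amino acid carrier, was highest in NA3 (1.21 ± 0.66). Glul, glutamine synthetase and a glial marker, was higher than in NA1a both in NA2 (by 0.88) and in NA3 (by 1.24). Glul was not called between NA2 and NA1b (adjusted p = 0.444), NA1c (0.420) or NA3 (0.525). Both RNA editing genes in the table were called. Adarb1, which encodes the enzyme known to edit the Q/R site of Gria2, had 0.211 ± 0.142 UMIs per 10000 in NA2, with NA1a at 0.474 ± 0.135, NA1b at 0.514 ± 0.241 and NA1c at 0.643 ± 0.332. It was called lower in NA2 than in NA1b (1.07) and NA1c (1.29) but not than in NA1a (1.03, adjusted p = 0.0579). Adar was lower in NA2 than in the 3 NA1 subtypes by 1.77, 1.94 and 1.93.

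The genes whose levels ran most like each member over the 23 profiles were named by the highest Pearson's r of log2 levels, which is given as a description. For Gria2 they were Snhg11, B830012L14Rik and Plekha5 (r = 0.968, 0.967 and 0.967). For Gria1 they were Rxfp1, Pcdh9 and Col23a1 (r = 0.858, 0.857 and 0.857), for Gria3 Sfswap, Tmem108 and Cep164 (0.90, 0.896 and 0.894) and for Gria4 Macf1, Clip1 and Kmt2a (0.902, 0.90 and 0.892). For Grik5 they were Zmynd8, Pkd1 and Rgs11 (0.940, 0.929 and 0.926) and for Grin1 Zfyve27, Atp6v0a1 and Arhgap26 (0.881, 0.822 and 0.791). Among the members, Gria2 ran most like Gria3 (r = 0.861) and Gria4 (0.853), and Gria1 and Gria3 were the least alike of the AMPA genes (0.265). The profiles share mice, depth and the gap between NA2 and the other subtypes, so these values are not independent.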

How the data were processed

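Single cells of stellate ganglia were sequenced on the 10x Genomics platform. The authors mapped reads with Cell Ranger 2.1.1 to mm10 with the GFP sequence added. Their filters required over 500 but below 6000 genes, below 20000 UMIs and under 15% mitochondrial RNA. Cells were normalized in Seurat, and 8 subtypes were named by Louvain clustering. No doublet removal is named, and none was done here. The deposited values are on the natural log scale (UMIs per 10000, with 1 added). Of the nonzero values, 100% returned a whole UMI within 0.01.

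Mean UMIs per 10000 were taken per mouse and subtype with at least 10 neurons. Genes reaching 0.1 in at least 3 profiles were kept for the subtypes, and in at least 5 for the Npy strata. Limma 3.58.1 (R 4.3.3) was run on log2(mean + 0.1), with the mouse as a block, an intensity trend and Benjamini-Hochberg adjustment at 0.05 over all genes tested in a contrast. Differences are on this scale and understate changes of low genes. Profiles of a mouse are paired because they come from the same animal (mean residual correlation 0.0484 over 42 pairs for subtypes, 0.0987 over 5 for Npy strata). Shares have exact 95% Clopper-Pearson intervals, and a count of 0 allows up to 3 neurons. Intervals and floors cover counting error alone. For thinned values each neuron was reduced at random to 2000 UMIs and shallower neurons were left out. Tests were two-sided and were checked on simulated data. Figures were made in Python 3.11.15.

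Of the 8 mouse names, 3 matched no single sample, and all mice compared are of batch 2. The samples left without a name are of batch 1, so pooled values probably mix the batches. How mice were kept apart after ganglia were combined is not given in the sources used here, so p-values measure the spread between these samples. The members, lists and tests were chosen with earlier results of these data known. Other genes named were up to 3 of smallest p in each list (1 such gene is not reported here), the 3 most alike genes of members with a mean of at least 0.5, and fixed markers. Grin2a, Grin2c, Grin2d and Malat1 were named after their values were seen. Gene spans and sequences are from the GENCODE annotation of GRCm38. Alternatives varied the pseudocount, filter, scaling, depth, weighting, neurons and mice.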

Additional observations from a re-analysis of the deposited data

Results flagged for a closer look

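In groups of 5 mice, a mouse was marked when its distance from the nearest other mouse was a large part of the group's whole range (Dixon's test). The 54 groups were levels of a member in a subtype or stratum and Gria2 shares of AMPA UMIs in a subtype. Of them 11 were marked, all for levels of a member, where chance marks about 1 in 20. Gria2 stood out in NA1a of replicate 2, at 7.31 UMIs per 10000 against 5.08 to 5.44 in the others, and in the high Npy stratum of the same mouse, at 7.03 against 4.94 to 5.39. These neurons overlap, so the values are not separate signs. Gria3 stood out in NA2 of replicate 3, at 0.142 against 0 to 0.0145, and Grik2 in NA2 of replicate 5, at 0.240 with the others at 0. The remaining 7 are rare transcripts with most mice at or near 0. Grin2b was at 0.0162 in NA1c of replicate 1 and at 0.0568 in the low Npy stratum of replicate 4. Grin3a was at 0.119 in NA1b, 0.129 in NA2 and 0.151 in the low Npy stratum of replicate 4, at 0.0348 in NA1c of replicate 5 and at 0.0410 in the high Npy stratum of replicate 1.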

How the results depend on the processing

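Of 199 alternative values of the main results 181 stayed within their limits and 18 did not. Of 987 values of single genes, 909 kept their side of the threshold, 51 lost it and 18 gained it. The other 9 changed direction, all for differences between Npy strata. Subtype pairs of a member that were not called in the main fit entered this count only where several settings called them. The count therefore does not cover all pairs, and calls gained in the pairs left out are missing from it. Genes called among the subtypes (5748) fell to 3075 with neurons thinned to 2000 UMIs and to 2920 without NA2, a setting chosen after seeing the data. Calls of members in subtype pairs (33) fell to 19 without NA3, to 19 without the 10% of neurons highest in satellite glia genes and to 15 without NA2, settings that remove NA3 or NA2 pairs. Leaving out a mouse gave 27 to 33. Genes called between Npy strata (642) were 339 with no filter, 378 with no replicate block, 164 after thinning, 5 within NA1a and 373 to 581 without a mouse, lowest without replicate 1. Members called there (2) were 1 after thinning, 0 within NA1a and 1 to 2 without a mouse. With no replicate block, apart from that fall from 642 to 378, there were 5646 genes, 7 members and 33 member calls among subtypes, and no call of a member was lost. The share of neurons with any member was 85.9% in NA1a, 68.0% in NA3 and 59.4% in Ach2 after thinning, and 91.2% in Ach2 without neurons that shared a barcode. Gria2 made up 40.7% of AMPA UMIs in pooled Ach2 neurons. Within NA1a the Npy difference turned for Grin1 (0.19), Gria3 (0.84), Grik2 (-0.068) and Gria4 (-0.078). That of Gria2 turned with summed UMIs (-0.093), thinned neurons (-0.29), without satellite-glia-rich neurons (-0.12), without replicate 1 (-0.05) and without replicate 2 (-0.14), and lay between -0.14 and 0.17 without a mouse. The cause was not tested. Gria1 between NA1b and NA1c lost its call with no filter (adjusted p = 0.0595), where more genes are tested, and kept it in the other 20 settings.

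NA2 rests on few receptor UMIs (5 to 38 AMPA UMIs per mouse), NA3 on 3 mice and Ach2 on 2, and Ach1 and Glut could not be fitted. In NA2, Malat1, gene span and shared barcodes moved with the receptor levels.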
